A study of Mus musculus with 17 samples.

Results

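Oligodendrocyte precursor cells (OPCs) were examined in single-nucleus transcriptomes from the neocortex of mice exposed to chronic unpredictable stress (CUS) and of unstressed controls. A nucleus was assigned to the OPCs when at least 3 of the genes Pdgfra, Cspg4, Vcan, Lhfpl3, Ptprz1, Olig1 and Olig2 had a transcript molecule (a unique molecular identifier, UMI), at least 1 of them being Pdgfra, Cspg4 or Vcan. At most 1 UMI was allowed in the sum of the neuronal genes Slc17a7, Gad1 and Gad2, and none in Enpp6, Opalin, Mog, Gja1 and Aqp4, which mark differentiating or myelinating oligodendrocytes and astrocytes. The rule was applied to barcodes with 600 to 5000 detected genes and under 5% mitochondrial UMIs. It selected 530 of 31486 such nuclei (1.683%), from 8 mice.

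All animals were male C57BL/6 mice, of the C57BL/6J substrain by the study's Methods. Neocortical nuclei came from 4 control and 4 CUS mice at postnatal day 80 (sNucDrop-seq, a droplet method), 24 h after the last stressor in CUS mice, and bulk nuclear RNA of the medial prefrontal cortex (mPFC) was sequenced from 4 control and 5 CUS mice at postnatal day 90. CUS mice received 3 different stressors a day for 12 days, whereas controls were kept in another room and gently handled each day. By the study's Methods, nuclei were prepared in 2 batches, each with 2 control and 2 CUS mice. The authors reported a marked batch effect on differential expression and modelled it. Here the batch of each mouse was not given in the labels, so that no batch term could be fitted. Control and CUS mice were housed apart, so that stress and room cannot be told apart.

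OPCs are the dividing glia of the adult brain that give rise to myelinating oligodendrocytes. They depend on platelet-derived growth factor through its receptor Pdgfra, carry the proteoglycan NG2 (the product of Cspg4), receive synapses from neurons, and use the transcription factors Olig1, Olig2 and Sox10 to specify and maintain the lineage. A precursor that commits to differentiation switches on Gpr17, an orphan receptor, then Bcas1 and Enpp6, and finally the genes of compact myelin.

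The 8 nuclei libraries kept 2267 to 4959 nuclei each, and 45 to 100 OPC nuclei with 69544 to 157590 OPC UMIs per mouse. OPC nuclei were shallow, with a median of 1210 UMIs and 859 genes, against 2109 UMIs and 1326 genes in the other nuclei. Of the barcodes kept, 27 sequences occurred in more than 1 library, and no OPC barcode was an OPC barcode of another mouse. Among the bulk libraries (26188825 to 30525015 counted reads), controls 3 and 4 stood apart. Control 4 held RNA of striatal neurons (Drd2 at 19.04 counts per 1e6 reads, CPM, and 1.18 to 4.15 CPM in the other 8), and both held more myelin RNA than the other libraries; as a choice made after the data were seen, the bulk comparison was repeated without both.

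The rule genes are a description of the members, since they chose them. Pdgfra was detected in 70.4% of the OPC nuclei (50% to 80% across mice), Cspg4 in 47.2% and Vcan, the matrix proteoglycan versican, in 75.5%. Lhfpl3 was detected in 90.8% and Ptprz1, a receptor phosphatase, in 94.3%. Both of these are less particular to OPCs: Lhfpl3 was detected in 21.7% of the other nuclei and Ptprz1 in 80.1% of 1474 astrocyte nuclei, selected by astrocyte markers. Olig1 was present in 48.3% and Olig2 in 26.8% of OPC nuclei. All 3 of Pdgfra, Cspg4 and Vcan occurred together in 140 nuclei, at least 2 of them in 353, and Vcan alone in 100.

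Not every member had a clean precursor profile. In 129 of the 530 nuclei (24.3%), over 1% of UMIs came from 11 abundant neuronal genes such as Meg3, Snhg11 and Syt1. In 3323 nuclei with 2 or more UMIs of Slc17a7, the marker of cortical excitatory neurons, the median was 2.58%. Those nuclei were chosen for a neuronal gene and the members for its near absence, so that the choice of nuclei enters this contrast. These 129 nuclei were deep (median 2768 UMIs, against 1101 in the other 401) and held 46.4% of all OPC UMIs. Pdgfra was detected in 55.0% of them and in 75.3% of the 401. A doublet score over 0.2 was given to 73 of the 129 and to 23 of the 401. As a choice made after the data were seen, the comparisons of gene counts were therefore repeated in the 401 nuclei with at most 1% neuronal RNA.

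The share of nuclei with over 1% neuronal RNA fell as the number of detected markers rose. Among members with exactly 3 markers, just inside the threshold, 52.0% of 127 exceeded 1% neuronal RNA, compared with 20.1% of 139 nuclei with 4 markers and 8.70% of 23 nuclei with all 7. Just outside the threshold, 88.9% of 235 nuclei with 2 markers exceeded it. Sox10, which the rule did not use, was detected in 1.70% of the nuclei with 2 markers, 15% of those with 3, 28.8% of those with 4 and 52.2% of those with 7. The share with neuronal RNA fell mainly between 2 and 4 markers, whereas Sox10 rose over that range and again between 6 markers (30.3%) and 7.

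**Figure D1:**
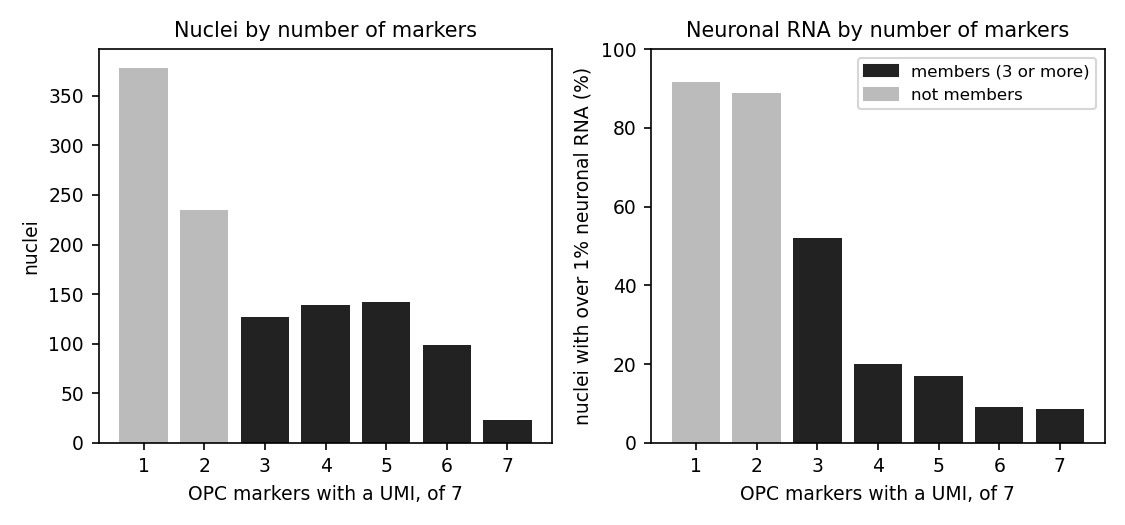
Nuclei that met the exclusion rules and held Pdgfra, Cspg4 or Vcan, by the number of the 7 OPC markers with a UMI (x axis). The left panel gives the number of nuclei and the right panel the percentage with over 1% neuronal RNA; black bars are members and grey bars are not. The percentage fell from 88.9% at 2 markers to 52.0% at 3 and 20.1% at 4.

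A set of 107 genes was at least 4-fold higher in OPC nuclei than in all other nuclei in each of the 8 mice, of 4120 genes with 50 or more OPC UMIs (2.6%). Of these, 7 are the rule genes. Levels are UMIs pooled over the nuclei of a class and scaled to the same total as counts per 1e6 (CPM). The contrast was given no test, and a gene is compared only with itself across nuclei. The highest ratios outside the rule belonged to C1ql1, a secreted C1q-like protein, with 149 CPM in OPC nuclei and 1.71 CPM elsewhere (87.6-fold, 62.8 to 131 across mice). Neu4, a sialidase, had 131 and 1.54 CPM, and Gpr17 had 249 and 4.19 CPM. The matrix protein gene Matn4 reached 178 CPM against 3.22, and the calcitonin-like receptor gene Calcrl 185 against 5.48. Tmem255b, Tmem100, Rlbp1, Afap1l2 and Caskin2 completed the 15 highest, with ratios of 36.2 to 53.9. In the 401 nuclei with at most 1% neuronal RNA the levels were higher, with C1ql1 at 239.7 CPM, Neu4 at 209 CPM, Matn4 at 279 CPM and Calcrl at 287 CPM.

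**Figure D2:**
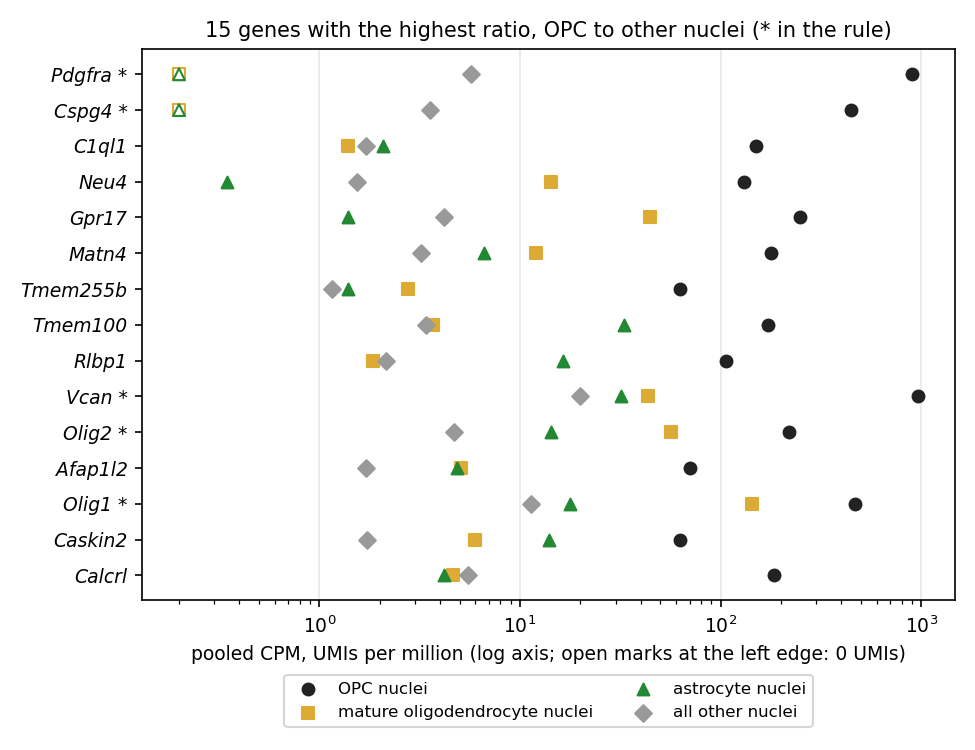
Pooled CPM on a log axis for the 15 genes with the highest ratio of OPC to other nuclei, in OPC, mature oligodendrocyte, astrocyte and all other nuclei; an asterisk marks rule genes and open marks at the left edge stand for 0 UMIs. Gpr17 stood at 249 CPM in OPC nuclei and 44.3 CPM in mature oligodendrocyte nuclei, and C1ql1 was under 3 CPM in all classes but the OPCs.

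Within the glia, 43 of the 107 genes were also at least 4-fold higher than in both astrocyte and mature oligodendrocyte nuclei (1074 nuclei selected by myelin genes). The other 64 were nearer in level to 1 or both of these classes. Sox10, the lineage factor of all oligodendroglia, had 209 CPM in OPC nuclei, 120 CPM in mature oligodendrocytes and 2.09 CPM in astrocytes. Bcas1 was at 404 CPM in OPC nuclei and 471 CPM in mature oligodendrocytes. Ptprz1 was at 2205 CPM in OPC nuclei and 1316 CPM in astrocytes.

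The pathway lists differed in how many members passed the 4-fold criterion, which 107 of 4120 genes (2.6%) passed. Of the transcription factors, 4 of the 10 genes with 50 UMIs passed: Sox10, Nkx2-2, Myt1 and Sox6, which were 33.1, 30.3, 11.7 and 11.6 times the level of other nuclei. Of matrix and surface genes, 11 of 24 passed, among them the proteoglycan genes Bcan and Cspg5, the tenascin gene Tnr, the endothelin receptor gene Ednrb and Sema3d. Bcan was higher still in astrocyte nuclei (506 CPM, 382 CPM in OPC nuclei), which held 40.6% of its UMIs. None of 14 growth factor signalling genes passed. Erbb4, a neuregulin receptor, was 1198 CPM in OPC nuclei and 587 CPM elsewhere, whereas Igf1r, an insulin-like growth factor receptor, was near the level of other nuclei (163 against 147 CPM). Pdgfra, as a rule gene, is not counted there.

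Neurotransmitter receptor and channel genes ranged widely in OPC nuclei. The potassium channel gene Kcnd2 had a UMI in 88.1% and the AMPA receptor subunit Gria2 in 82.3%, but the NMDA receptor subunit Grin1 in 24.3% and the kainate receptor subunit Grik3 in 7.74%. Gria2 (1813 CPM, 2042 CPM elsewhere), Gria3 (1085 and 1328 CPM) and the metabotropic receptor gene Grm5 (1026 and 1301 CPM) were lower than elsewhere, whereas Kcnd2 (2124 and 1358 CPM) and the kainate receptor subunit Grik1 (321 and 209 CPM) were higher. In the 401 nuclei with at most 1% neuronal RNA, Gria2 was at 1619 CPM and Gria3 at 797 CPM, and in mature oligodendrocyte nuclei at 1345 and 827 CPM. Of 28 receptor and channel genes, 4 passed the 4-fold criterion, beside 2.6% of all genes. They included Cacng4, which encodes an AMPA receptor auxiliary subunit (22.1-fold), and the NMDA receptor subunit gene Grin3a (5.35-fold). The others were the inward rectifier channel genes Kcnj16 (12.4-fold) and Kcnj10 (7.41-fold). Kcnj10 was as high in astrocyte (141 CPM) and mature oligodendrocyte nuclei (143 CPM) as in OPC nuclei (117 CPM), and Kcnj16 was at 60.8 CPM in astrocyte and 64.8 CPM in OPC nuclei.

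Commitment genes marked a fraction of the precursors. Gpr17 had a UMI in 153 of 530 OPC nuclei (28.9%, median 1210 UMIs), in 4.38% of mature oligodendrocyte nuclei (median 1397.5 UMIs) and in 0.271% of astrocyte nuclei (median 1353 UMIs). Itpr2, Tns3 and Bcas1 also passed the 4-fold criterion. The myelin gene Mbp was low, with 112 CPM in OPC nuclei, 137 CPM in other nuclei and 2349 CPM in mature oligodendrocytes. When each nucleus was thinned to 800 UMIs and only nuclei with at most 1% neuronal RNA were kept, 86 of 389 had Gpr17. Bcas1 was detected in 41.9% of these 86 and in 34.0% of the other 303, and Sirt2 in 24.4% and 11.6%. Bmp4, a secreted factor of committed precursors, was found in 6 of 86 and 3 of 303 nuclei. Other genes of the lineage had close or lower percentages beside Gpr17: Mbp in 8.14% and 7.92%, Ugt8a in 9.30% and 10.6%, Zfp488 in 4.65% and 4.95%, Tcf7l2 in 3.49% and 4.62%, and Sox10 in 19.8% and 24.4%. Cnksr3 was found in 0 of 86 and 5 of 303 nuclei. Mean Bcas1 counts were higher in the Gpr17 nuclei in 7 of 8 mice and mean Sirt2 counts in 6 of 8. Such sparse counts describe the members and were not tested.

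Genes of cell division were found in few OPC nuclei. The proliferation gene Mki67 had a UMI in 11 of 530 OPC nuclei (2.08%, exact 95% interval 1.04% to 3.68%), compared with 101 of 30956 other nuclei (0.326%), 2 of 1474 astrocyte nuclei and 0 of 1074 mature oligodendrocyte nuclei, which, at 3 counts of the total, allows up to 0.279% of nuclei with a UMI. At least 2 division genes were found in 13 OPC nuclei (2.45%), with 1 to 3 in each of the 8 mice. At least 2 were also found in 0.233% of the other nuclei, 0.0678% of astrocyte nuclei and 8 (0.745%) of mature oligodendrocyte nuclei. The division gene Top2a, like Mki67, was detected in 0 mature oligodendrocyte nuclei, so that those 8 held other genes of the list. The 13 OPC nuclei, chosen for such genes, held 33 of the 37 Mki67 UMIs, all 11 UMIs of Cenpf and all 13 of Kif11. Of other division genes they held less, with 6 of the 14 UMIs of Cenpe, 5 of 25 of Pcna and 3 of 22 of Mcm6. Ccnd1, the cyclin of the early cell cycle, was found far more widely, in 20% of OPC nuclei, and at 151 CPM was 8.19 times the level of other nuclei.

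The first question put to the design was whether CUS altered how many OPCs were recovered. OPC nuclei made up 1.31%, 1.64%, 1.21% and 2.65% of nuclei in control mice 1 to 4 and 2.47%, 1.62%, 1.61% and 1.48% in CUS mice 1 to 4. The groups overlapped, each with 1 high mouse. The means were 1.70% ± 0.657 and 1.79% ± 0.453 (SD, n = 4 each), a difference of 0.0941 percentage points (two-sided exact permutation test, p = 0.743, adjusted over 4 tests 0.743). As a share of the oligodendrocyte lineage (OPC, Enpp6 and mature nuclei), OPCs made up 33.2% ± 11.4 in controls and 36.8% ± 3.84 in CUS mice (n = 4 each, exact permutation p = 0.571, adjusted 0.743). With 4 mice a group the smallest p this test can give is 0.0286.

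The detection of commitment genes and the depth did not differ beyond the spread between mice either. Nuclei with Gpr17, Bmp4 or Bcas1 made up 50.5% ± 6.88 of the OPCs in controls and 56.0% ± 4.45 in CUS mice (n = 4 each, exact permutation p = 0.2, adjusted 0.4). The median UMI count per OPC nucleus was 1313 ± 267 and 1133 ± 151 (n = 4 each, exact permutation p = 0.171, adjusted 0.4). In the 401 nuclei with at most 1% neuronal RNA the share with Gpr17, Bmp4 or Bcas1 was 56.0% ± 6.97 and 61.8% ± 0.652 (n = 4 each, exact permutation p = 0.143). Below, this is called the committed share, which counts the detection of these genes and does not establish a committed state.

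**Figure D3:**
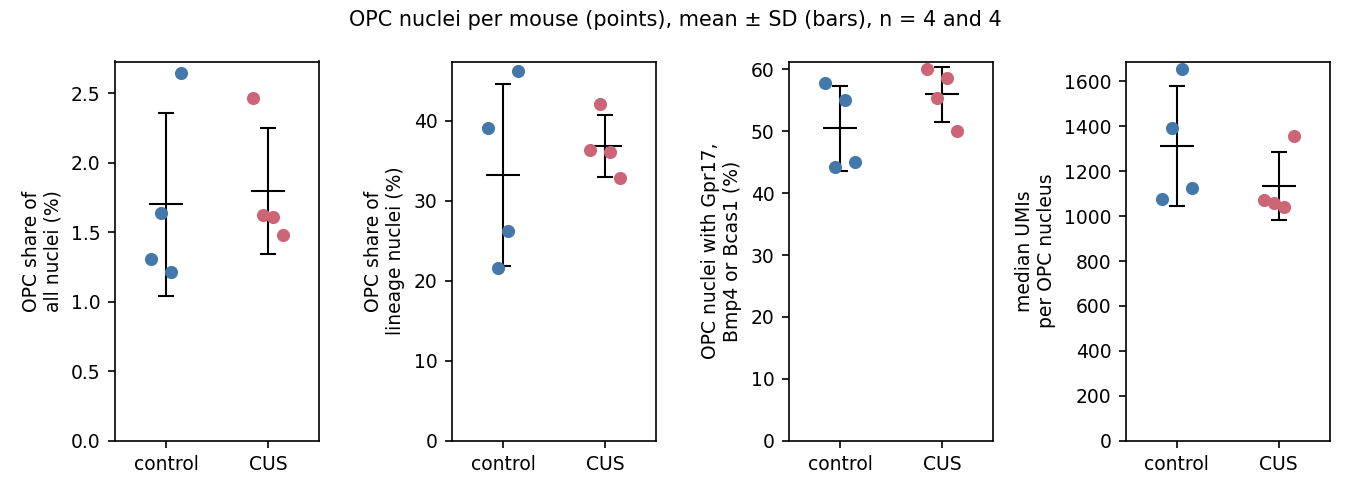
Values of the OPC nuclei in each mouse (points; blue control, red CUS), with the mean ± SD of 4 mice a group as black bars: OPC share of all nuclei and of lineage nuclei, share of OPC nuclei with Gpr17, Bmp4 or Bcas1 (all in percent), and the median UMIs per OPC nucleus. The control and CUS points overlap in every panel.

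The detection of Gpr17 was examined by itself. Among all members it was detected in 24.4%, 16.5%, 40% and 18.3% of OPC nuclei of control mice 1 to 4 and in 36.0%, 30.4%, 31.0% and 31.9% of CUS mice 1 to 4, and control 3, whose OPC nuclei were the deepest (median 1655 UMIs), lay above the CUS range. In the 401 nuclei with at most 1% neuronal RNA the percentages were 27.8, 18.0, 48.8 and 21.7 in controls and 40, 33.3, 34.0 and 39.2 in CUS mice, with control 3 again the highest. When these nuclei were also thinned to 800 UMIs in 1 random draw, they were 20, 13.1, 19.5 and 14.0 in controls and 30.7, 27.0, 26.1 and 23.5 in CUS mice. Each CUS mouse was then above each control mouse, as for 1.37% of 1609 genes treated in the same way. Other draws of these nuclei were not made. In a separate draw over all nuclei, members were selected anew, without the limit on neuronal RNA. There the committed share was 44.1% ± 7.22 in controls and 47.1% ± 5.67 in CUS mice, with overlap (n = 4 each, exact permutation p = 0.543). In the model of summed counts described next, Gpr17 had a log2 fold change of 0.58 (SE 0.26, unadjusted p = 0.0306) and an adjusted p of 0.927 in edgeR, so that it was not called.

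The UMIs of the OPC nuclei were summed in each mouse and tested with the quasi-likelihood test of edgeR (false discovery rate, FDR, under 0.2, the threshold of the study's Methods). Of 3789 genes tested, 1 was called (0.0264%), Pdia6, which was higher in CUS mice, and 0 were called lower. An unadjusted p under 0.05 was found for 195 genes (5.15%). Without CUS 2 the number called was 21, 12 higher and 9 lower. On simulated counts at this depth, with 200 of 3789 genes changed at once, the same test recovered 56.5% of them when changed 2-fold. It recovered 95.5% when they were changed 4-fold, with 14.4% and 14.3% of calls false. Recovery with fewer genes changed was not simulated, so these percentages do not give the recovery of single changes here.

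Pdia6 encodes a protein disulfide isomerase of the endoplasmic reticulum, which helps secreted and membrane proteins to fold. Its counts were low, with 4, 15, 4 and 3 UMIs in control mice 1 to 4 and 18, 17, 17 and 26 UMIs in CUS mice 1 to 4. As CPM scaled by TMM normalization these were 74.8, 122, 38.2 and 43.6 in controls and 172, 235, 286 and 220.3 in CUS mice. Each CUS mouse was above each control mouse, as for 1.16% of all genes tested. The log2 fold change was 1.59 (SE 0.36, edgeR adjusted p = 0.176). The UMIs came from many nuclei: 8.89%, 13.9%, 6.67% and 5.00% of OPC nuclei in controls had a Pdia6 UMI, and 18.0%, 21.4%, 20.7% and 29.2% in CUS mice.

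The call for Pdia6 was not stable. The likelihood ratio test of edgeR gave an adjusted p of 0.0361. Its log2 fold change was 1.93 among the 401 nuclei with at most 1% neuronal RNA, where the edgeR adjusted p was 0.280, and it was not called by DESeq2 (adjusted p = 0.998). Leaving out control 1, 3 or 4, or CUS 3 or 4, also ended the call, with log2 fold changes of 1.35 to 2.17 across all 8 omissions. In astrocyte nuclei of the same mice the log2 fold change of Pdia6 was -0.00080 and in mature oligodendrocyte nuclei 0.57. The difference between OPCs and astrocytes was 1.62 (SE 0.44, unadjusted p = 0.000507, edgeR adjusted p = 0.631), and that between OPCs and mature oligodendrocytes 0.98 (adjusted p = 0.989). No difference in CUS effect passed the FDR of 0.2 in either pair of classes (0 of 3371 and 0 of 3400 genes by edgeR, with 143 at an unadjusted p under 0.05 in each, 4.24% and 4.21%).

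Many chaperone genes of the endoplasmic reticulum carry the ER stress response element, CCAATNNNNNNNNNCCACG, near their start sites. The element was searched on both strands in the 250 bases before the start of RefSeq genes (GRCm38.p6), a choice made after the values for Pdia6 were seen. It was found in 37 of 32851 promoters (0.113%) and in 6 of the genes tested in OPC nuclei, 2956 of which matched a promoter by symbol. The Pdia6 promoter is printed because Pdia6 was the gene called, with the element in capitals; it lies on the plus strand at chr12:17266339-17266588, with the element 79 bases before the start.
Pdia6 promoter: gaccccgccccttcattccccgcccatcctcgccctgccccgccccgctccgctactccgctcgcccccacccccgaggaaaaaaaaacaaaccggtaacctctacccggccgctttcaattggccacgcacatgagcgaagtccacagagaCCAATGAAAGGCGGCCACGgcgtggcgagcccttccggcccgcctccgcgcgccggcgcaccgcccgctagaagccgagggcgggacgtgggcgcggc

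The elements of the 6 genes, each with 5 flanking bases and in the orientation of the motif, are shown for comparison, capitals marking the 19 positions of the motif.
Pdia6: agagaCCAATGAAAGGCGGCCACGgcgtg
Hspa5: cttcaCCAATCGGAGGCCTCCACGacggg
Canx: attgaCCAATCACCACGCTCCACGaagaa
Calr: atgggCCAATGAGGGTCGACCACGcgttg
Hsp90b1: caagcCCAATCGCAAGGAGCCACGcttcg
Dnajc3: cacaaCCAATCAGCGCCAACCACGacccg
The elements were at chr12:17266491-17266509 (Pdia6), chr2:34772025-34772043 (Hspa5), chr11:50325800-50325818 (Canx), chr8:84847075-84847093 (Calr), chr10:86705638-86705656 (Hsp90b1) and chr14:118937827-118937845 (Dnajc3). In OPC nuclei the log2 fold change was 0.60 (SE 0.26, unadjusted p = 0.0273, edgeR adjusted p = 0.927) for Hspa5, the chaperone BiP. It was 0.31 for Canx and 0.21 for Calr, both lectin chaperones, 0.07 for Hsp90b1 and -0.09 for Dnajc3. None of these 5 was called. A match of letters describes the sequence only.

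The other 11 genes named by rank, 5 with the next smallest p among higher and 6 among lower values, did not pass the threshold (edgeR adjusted p 0.527 to 0.900). Psap, which encodes the lysosomal protein prosaposin, had 131, 195, 76.4 and 145 CPM in controls and 429.9, 290.5, 185 and 288 CPM in CUS mice, with a log2 fold change of 1.14 (SE 0.30) and overlapping groups. Nrxn2, a presynaptic adhesion gene, ranged from 203 to 326 CPM in controls and from 359.6 to 687.8 CPM in CUS mice without overlap (log2 fold change 0.90, SE 0.24). Dusp11, an RNA phosphatase gene, ranged from 131 to 228 and from 235 to 437 CPM (0.86), and also did not overlap. Groups without overlap in that direction were found for 1.16% of all genes tested, and these genes were picked by their p. Ckb, creatine kinase B, had a log2 fold change of 0.80 and Pla2g7, a lipase gene with only 2 to 17 UMIs a mouse, of 1.46.

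Among the lower values, Shisa9, whose product is an AMPA receptor auxiliary protein, was 243, 212, 182 and 233 CPM in controls and 105, 83.0, 67.3 and 110.1 CPM in CUS mice, with no overlap (log2 fold change -1.16, SE 0.32), as for 1.16% of all genes tested in that direction. Galnt13, a glycosyltransferase gene, ranged from 554 to 857 CPM in controls and from 319.5 to 470.3 CPM in CUS mice (-0.72), and Shprh, a ubiquitin ligase gene, from 143 to 243 and from 76.4 to 111 CPM (-1.07). Both were without overlap. Rapgef5 (-1.07) and the GABA receptor gene Gabrb2 (-0.88) overlapped. Galntl6 was -1.14 in all members, -0.15 in those with at most 1% neuronal RNA and -1.91 without CUS 2 (edgeR adjusted p = 1.74e-05). In CUS mouse 2, whose OPC UMIs had the largest neuronal share (1.65%), it was 664 CPM against 105 to 220.3 CPM in the other CUS mice. In the nuclei with at most 1% neuronal RNA none of these 11 genes passed. Apart from Galntl6, their log2 fold changes there were 0.79 to 1.46 for Psap, Nrxn2, Dusp11, Ckb and Pla2g7 and -1.22 to -0.68 for Shisa9, Galnt13, Shprh, Rapgef5 and Gabrb2 (edgeR adjusted p 0.280 to 0.977).

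**Figure D4:**
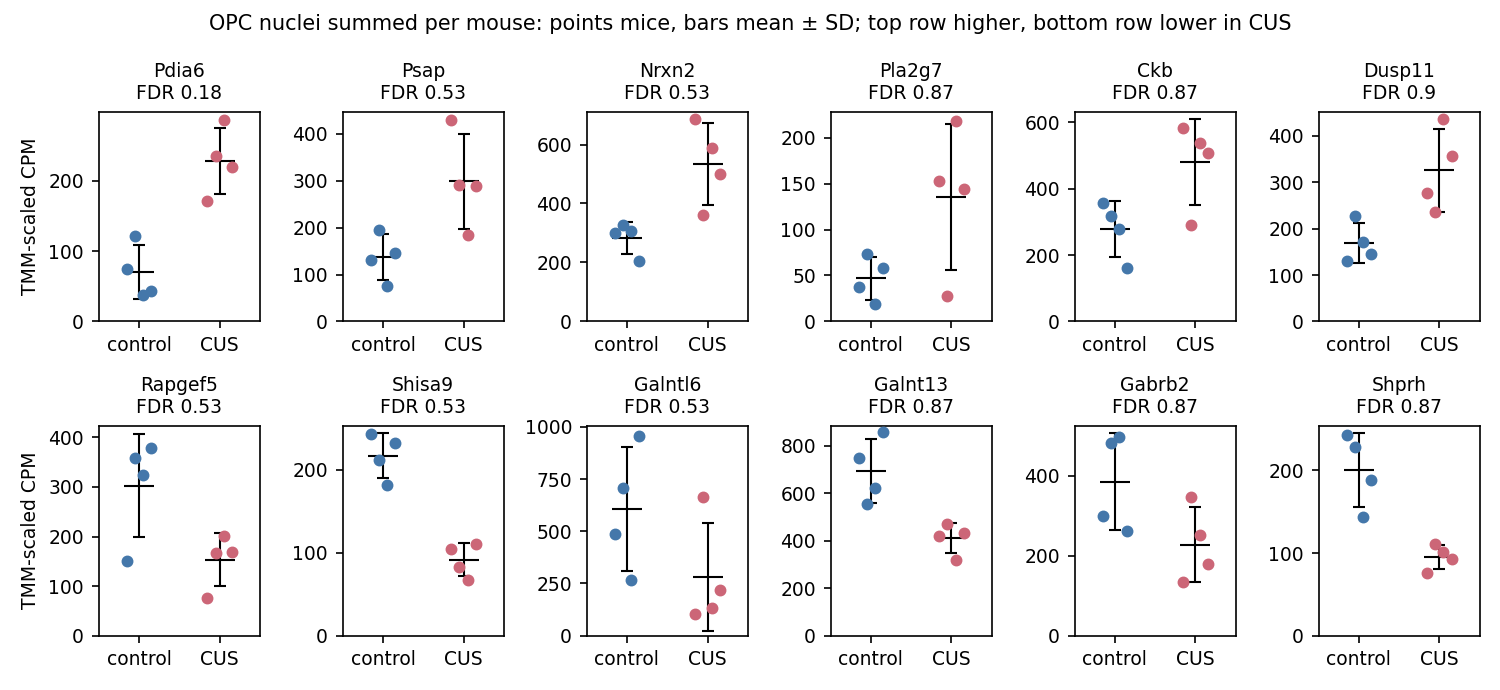
TMM-scaled CPM of the 12 genes with the smallest p in OPC nuclei, 6 higher (top row) and 6 lower (bottom row) in CUS mice; points are mice, black bars the mean ± SD of 4 mice, and the edgeR adjusted p (FDR) stands above each panel. Pdia6 in the first panel was the 1 gene under 0.2, with controls from 38.2 to 122 CPM and CUS mice from 172 to 286 CPM.

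No member of the pathway lists was called in OPC nuclei. Of the transcription factors, 8 were tested, 3 higher and 5 lower in CUS mice, with a median log2 fold change of -0.01. Of 24 matrix and surface genes 14 were higher (median 0.09), of 12 growth factor signalling genes 6 (median -0.0015), and of 28 receptor and channel genes 13 (median -0.03), beside a median of 0.0017 over all genes tested. Erbb4 had a log2 fold change of -0.58 (unadjusted p = 0.00748, adjusted 0.914). Of 8 Notch, Wnt and BMP genes 5 were higher (median 0.14), and of 7 commitment genes 5 (median 0.08). Of 6 glucocorticoid-responsive genes and receptors 3 were higher. Nr3c1, the glucocorticoid receptor, had a log2 fold change of -0.31 and Nr3c2, the mineralocorticoid receptor, of -0.61 (adjusted p = 0.986 for both). Sgk1 was at 0.16. The activity-regulated genes Jun and Egr1, the 2 of their list tested, were at 0.86 and 0.90. The summed CPM of that list overlapped in OPC nuclei, with 129 to 486 in controls and 295 to 583 in CUS mice. In all other nuclei it was 296 to 592 in controls and 485 to 667 in CUS mice. Ccnd1 and Ccnd2, the 2 division genes, were at 0.70 and 0.18, and the 2 myelin genes tested had a median of 0.23. In the nuclei with at most 1% neuronal RNA no list member was called either, but several lists shifted: 2 of 9 transcription factors were higher (median -0.16), 12 of 24 matrix and surface genes (-0.0071), 5 of 9 growth factor signalling genes (0.17), 10 of 28 receptor and channel genes (-0.05), 5 of 6 Notch, Wnt and BMP genes (0.31), 4 of 7 commitment genes (0.02), 2 of 6 glucocorticoid-responsive genes and receptors (-0.09) and both myelin genes (0.35). Erbb4 was then at -0.41, Nr3c1 at -0.23 and Nr3c2 at -0.08. The 1 activity-regulated gene tested there was at 0.70 and the 1 division gene at 0.44.

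The rule genes, given as a description, were at 0.18 (Pdgfra), 0.27 (Cspg4), -0.10 (Vcan), -0.06 (Lhfpl3), 0.04 (Ptprz1), 0.51 (Olig1) and 0.12 (Olig2) on the log2 scale. Among the 107 OPC-enriched genes 104 were tested, and 78 of these (75%) had higher values in CUS mice, against 50% of all genes tested. None was called, and 11 had an unadjusted p under 0.05 in that direction (2.69% of all genes). Their median log2 fold change was 0.12, against 0.0017 over all genes. Without the 7 rule genes, whose UMIs chose the nuclei, 73 of 97 were higher, with a median of 0.13. With at most 1% neuronal RNA, 70 of 106 were higher (50.1% of all genes), with a median of 0.09. Leaving out 1 mouse gave 66 to 84 of 104. With at least 1000 genes per nucleus the lean was absent, with 51 of 106 higher (48.1%, against 48.8% of all genes) and a median of -0.04. That filter kept 184 of the 530 nuclei. The median number of genes was 1720 in the 129 nuclei with over 1% neuronal RNA and 804 in the 401.

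Genes listed for other cell types varied within the members as well. Of 6 astrocyte genes tested, 5 were higher in CUS mice (median 0.41, none called), with Plpp3 at 0.55. The sum over the 11 astrocyte genes was 2555 to 2805 CPM in the OPC nuclei of controls and 2512 to 3848 CPM in those of CUS mice, and 3532 to 4288 against 4314 to 4915 CPM with at most 1% neuronal RNA. Gpc5, a gene of this list, is also 1 of the 107 OPC-enriched genes. Over all members it gave 1195 to 1466 CPM of the sum in controls and 1280 to 1642 CPM in CUS mice. The sums are therefore not a measure of astrocyte RNA alone. Gja1 and Aqp4, the defining markers, were at 0 by the rule. Of 8 neuronal genes tested, 7 were higher in CUS mice (median 0.10, none called), and 6 of 7 with at most 1% neuronal RNA (median 0.39). The 11 neuronal genes summed to 11340 to 13110 CPM in controls and 9235 to 16450 CPM in CUS mice. In the nuclei with at most 1% neuronal RNA, a limit set on these same genes, they summed to 3255 to 4280 CPM in controls. There CUS 1 had 5569 CPM and the other CUS mice 3662 to 3759 CPM. The 3 striatal genes tested were lower in CUS mice (median -0.28, none called), with Penk at -1.27 (unadjusted p = 0.0101), and the 9 striatal genes summed to 388 to 812 CPM in controls and 372 to 700.2 CPM in CUS mice. The part of these in the results above was not tested.

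The bulk mPFC libraries offered a measurement in other mice, of another region and age, on genes chosen from the nuclei. By the study's Methods, these mice had also gone through behavioural tests before collection. There the OPC-enriched genes leaned the other way. Of 107 genes 85 had lower values in CUS mice, against 48.7% of all 18394 genes tested. By edgeR at an FDR under 0.05, which called 3.29% of all genes, 10 fell (2.13% of all genes were called lower) and 1 rose (1.16% were called higher). The median log2 fold change was -0.16, beside 0.0060 over all genes. The number called lower was 3 without control 2, CUS 4 or CUS 5, 5 without control 4, 6 without CUS 3 and 7 without controls 3 and 4, where 78 were lower and 4 rose; in that fit 3.69% of all genes were called lower and 3.45% higher. Calls over all genes dropped too, to 0.58%, 0.576% and 0.565% called lower without control 2, CUS 4 or CUS 5, where 85 to 87 of the 107 were lower with medians of -0.16 to -0.15. In bulk tissue, fewer cells of a type and less RNA per cell cannot be told apart.

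Lhfpl3, the gene called lower that was also 4-fold higher in OPC nuclei than in both other glial classes, was 235, 270.3, 277 and 296 CPM in control mice 1 to 4 and 166, 233, 186, 163 and 168 CPM in CUS mice 1 to 5. The groups did not overlap, as for 4.7% of all genes tested in that direction, CUS 2 being close to control 1. The log2 fold change was -0.56 (SE 0.10, edgeR adjusted p = 0.0159), and without CUS 4 the adjusted p was 0.0526. Ptprz1 was 169, 172, 175 and 200 CPM in controls and 140, 148, 143, 136 and 132 CPM in CUS mice (-0.36, SE 0.06, adjusted p = 0.0120). Chd7, a chromatin remodeller, was 44.6, 50.4, 56.7 and 56.1 CPM in controls and 38.5, 39.9, 37.6, 37.9 and 37.0 CPM in CUS mice (-0.44, SE 0.07, adjusted p = 0.00954). Gsap, which encodes a protein that binds gamma-secretase, fell by 0.41 on the log2 scale (adjusted p = 0.0101). The other 6 genes called lower were Bcas1 (-0.46), Wipf1, Mtss1l, Prrx1, Cpq and Fign. Without controls 3 and 4, Bcas1 (-0.24), Wipf1 (-0.26), Prrx1 (-0.52) and Fign (-0.36) were not called (edgeR adjusted p 0.0705 to 0.126). Sema3d, not called with all mice, was called in that fit (-0.44, adjusted p = 0.0365).

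Tnr was the gene that rose. It encodes tenascin-R, a matrix glycoprotein of perineuronal nets made by oligodendroglia and some neurons. It was 797, 802, 990 and 793 CPM in controls and 1320, 1244, 1217, 1202 and 1168 CPM in CUS mice, with no overlap, as for 4.06% of all genes in that direction (log2 fold change 0.54, SE 0.07, edgeR adjusted p = 0.00567). In OPC nuclei the log2 fold change of Tnr was 0.11 (adjusted p = 0.986). Megf11 (0.47, adjusted p = 0.121), Mfsd2a (0.28, adjusted p = 0.203) and Caskin2 (0.21, adjusted p = 0.233) had the next smallest p and did not pass. Without controls 3 and 4, Megf11 (0.57, adjusted p = 0.00910) and Mfsd2a (0.46, adjusted p = 0.0299) were called.

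**Figure D5:**
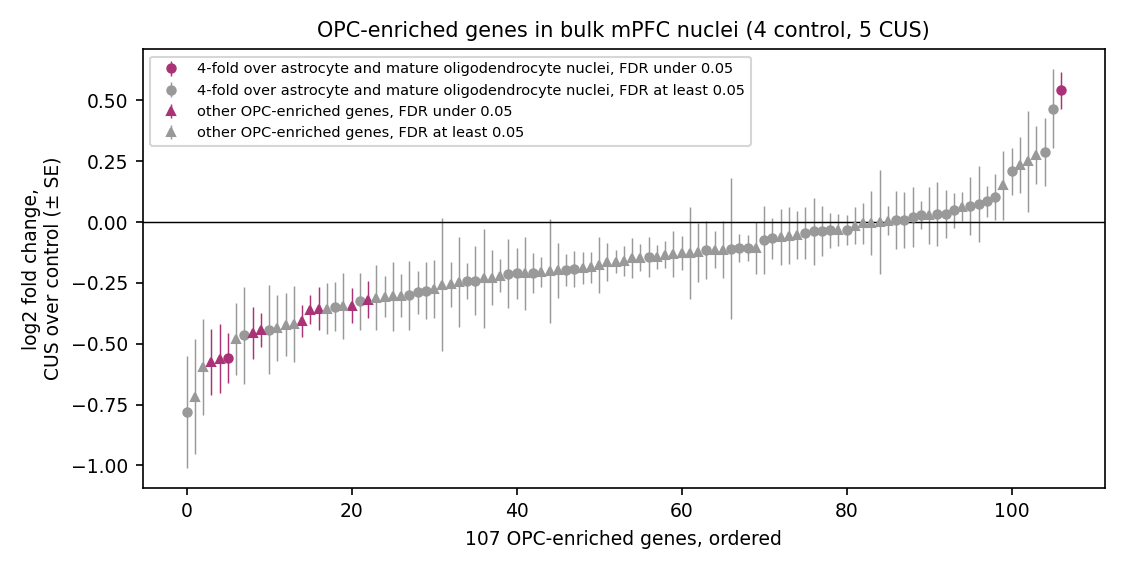
Log2 fold change, CUS over control, with its SE, of the 107 OPC-enriched genes in bulk mPFC nuclei, ordered by value; circles are the 43 genes at least 4-fold higher in OPC than in astrocyte and mature oligodendrocyte nuclei, triangles the other 64, and purple marks an FDR under 0.05. Most points lie below 0 (85 of 107), and 9 of the 10 genes called lower are triangles.

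Most of the genes called lower were also expressed in other glia. Of the 43 genes that were 4-fold higher in OPC nuclei than in both other glial classes, 28 were lower in CUS mice, with a median of -0.08; 1 was called lower (Lhfpl3, 2.33% of the 43) and 1 higher (Tnr), close to the 2.13% and 1.16% of all genes. Of the other 64, 57 were lower, with a median of -0.19, and 9 were called lower (14.1%). The difference between these groups of genes was not tested. OPC nuclei held 1.089% of all UMIs of the neocortex nuclei and a median of 13.4% of the UMIs of the 107 genes. They held 12.7% of the UMIs of Lhfpl3, with 1.99% in astrocyte and 1.85% in mature oligodendrocyte nuclei, so that most lay in nuclei of none of these classes. They held 14.9% of the UMIs of Ptprz1, of which astrocyte nuclei held 28.2%, and 10.4% of those of Gsap, of which astrocyte nuclei held 28.3%. Of the UMIs of Bcas1, 16.1% were in OPC nuclei and 44.5% in mature oligodendrocytes, and of those of Tnr 5.60% were in OPC nuclei.

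The 2 genes most concentrated in OPC nuclei differed little. Pdgfra, with 63.4% of its UMIs in OPC nuclei, was 26.4, 27.1, 24.7 and 28.6 CPM in bulk controls and 24.3, 19.8, 26.7, 25.7 and 24.2 CPM in CUS mice, overlapping (log2 fold change -0.15, SE 0.08, adjusted p = 0.329). Cspg4, with 58.0% of its UMIs in OPC nuclei, was at -0.03 (SE 0.07, adjusted p = 0.825). Vcan was at -0.24 (adjusted p = 0.0824), Olig1 at -0.23 (adjusted p = 0.548) and Olig2 at -0.00080. All 7 rule genes had values below 0, as did 48.7% of all genes. Of the 7, 2 were called, Ptprz1 and Lhfpl3, beside 2.13% of all genes called lower. The precursor genes C1ql1 (-0.08), Neu4 (0.29), Matn4 (0.07) and Gpr17 (0.10) did not pass the threshold.

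Other lists of the lineage and of its surroundings moved in bulk too. All 12 myelin genes were lower (median -0.51, 11 with an unadjusted p under 0.05, against 11.4% of all genes). None was called by the quasi-likelihood test, 2 by the likelihood ratio test and 2 by DESeq2 (4.33% and 4.91% of all genes were called lower by the last 2). Without control 1, whose sum was the lowest of the controls, 9 were called (median -0.71). The sum of their CPM ranged from 313 to 718 in controls and from 337 to 422 in CUS mice. Without controls 3 and 4, whose sums were 718 and 711, 10 of 12 were lower with a median of -0.05. Of 14 commitment genes 12 were lower and 4 fell (2.13% of all genes were called lower): Cnksr3, Ugt8a, Bcas1 and Tcf7l2. Without controls 3 and 4, 8 were lower and Cnksr3 was the 1 called. None was called without control 2 or CUS 4, 1 without control 4 or CUS 5, 2 without CUS 1, 2 or 3, and 6 without control 1. In the fits without control 2 and without CUS 4, 11 of 14 were lower, with medians of -0.22 and -0.14 against -0.22 with all mice, and 0.58% and 0.576% of all genes were called lower. Of 14 transcription factors 12 were lower and 1, St18, fell (-0.73, adjusted p = 0.0461), against -0.30 and an adjusted p of 0.185 without controls 3 and 4. No transcription factor was called without control 2, control 4 or any 1 of the CUS mice, whereas 12 or 13 of the 14 were lower in each of these fits, with medians of -0.28 to -0.16 (-0.25 with all mice). Of 11 astrocyte genes 10 were lower and 4 fell, Gja1 by 0.56 on the log2 scale (adjusted p = 0.00813). Without controls 3 and 4, 8 were lower and 4 were called, Gja1 at -0.46 (adjusted p = 0.00602), and 2 were called without control 2, CUS 4 or CUS 5. The summed astrocyte level overlapped between the groups, with the highest sums, 2980 and 2868 CPM, in controls 3 and 4, 2567 and 2612 CPM in controls 1 and 2, and up to 2700 CPM in CUS mice. The part of myelin and astrocyte RNA in the OPC results was not tested.

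Among the remaining lists, 7 of 21 activity-regulated genes fell (2.13% of all genes were called lower), those with the smallest p being Cyr61 (-1.77) and Nr4a2 (-1.76, adjusted p = 0.00107 for both). Fos was at -1.05 (adjusted p = 0.00567). Leaving out 1 mouse gave 5 to 10 genes called. Of 30 receptor and channel genes 4 rose (1.16% of all genes were called higher), with Grin2a at 0.59 (adjusted p = 0.0159). None of the 30 was called higher without control 2, 1 without CUS 4 or CUS 5, 2 without control 1, CUS 1 or CUS 3, 7 without controls 3 and 4, and 9 without control 3. Of all genes, 0.134% were called higher without control 2, 0.236% without CUS 4, 0.203% without CUS 5 and 3.77% without control 3. The median of the list was 0.03 with all mice and 0.04 in each of the first 3 of these. Igf1r rose by 0.28 (adjusted p = 0.0198) and Pde10a, a striatal marker, by 0.61 (adjusted p = 0.0161); without control 2 the adjusted p of these 3 genes was 0.0521 to 0.0756, with log2 fold changes of 0.59, 0.27 and 0.57. The other 8 of the 9 striatal genes were lower, and the list had a median of -0.88. Without controls 3 and 4, 4 of the 9 were lower, with a median of 0.12. Mki67 fell by 1.58 (adjusted p = 0.0488), from 0.877 to 3.42 CPM in controls to 0.448 to 0.861 CPM in CUS mice, the 2 highest values being controls 3 and 4; without these its log2 fold change was -0.46 (adjusted p = 0.364), and without CUS 5 its adjusted p was 0.125.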

How the data were processed

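Neocortex nuclei of 8 mice were profiled by sNucDrop-seq and bulk mPFC nuclei of 9 mice by RNA-seq. The authors aligned reads to mm10 with STAR and deposited counts per gene (exonic and intronic reads on the annotated strand for nuclei, with UMIs that differed by 1 base merged, and uniquely mapped reads for bulk). The version of STAR is not given in the sources used here. From these counts, OPC nuclei were selected as described and their UMIs summed per mouse. Genes whose UMIs exceeded 10% of the number of nuclei were tested with edgeR 4.0.16 (R 4.3.3; TMM normalization, quasi-likelihood test, no covariate, FDR 0.2), as were differences in CUS effect between classes, with mouse as a term. Bulk counts were tested likewise after filtering on expression (FDR 0.05). Adjusted p-values are by Benjamini-Hochberg over all genes tested. Shares per mouse were compared by two-sided exact permutation tests (SciPy 1.17.1), and intervals of shares are Clopper-Pearson intervals, which cover counting error only.

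Mature oligodendrocyte and astrocyte nuclei had 3 or more of 7 markers of their class. Genes were named by rank: the 6 smallest p per direction in OPC nuclei, the 4 per direction in bulk for OPC-enriched genes and for lists, the 15 highest OPC ratios, and, in OPC nuclei, the 3 highest and any called member of a list. Some list members called in bulk are not named. The members and lists were chosen with earlier results of these data known. Doublets were scored with Scrublet (scanpy 1.11.5), which scored 15.2% of nuclei over 0.2; they were removed only in an alternative. Alternatives were DESeq2 1.42.0, the likelihood ratio test, no TMM, no low-count filter, replicate blocks, other nucleus filters, thinning, and leaving out each mouse. Fits were tested on simulated data. No replicate pair agreed within sampling noise (chi-square per degree of freedom 1.54 to 2.60 in OPC sums, 3.06 or more in bulk). Replicates are mice. Some genes measured are not reported here.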

Additional observations from a re-analysis of the deposited data

Results flagged for a closer look

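Of 74 groups of 4 or 5 mice examined, 4 held a mouse far from the others by Dixon's criterion at 95%, where chance gives about 1 in 20. The OPC share of nuclei was 2.47% in CUS 1, against 1.48% to 1.62% in the other CUS mice. The median UMI count per OPC nucleus was 1358 in CUS 4, against 1040 to 1074 in the other CUS mice. In the bulk mPFC, Tnr was 990 CPM in control 3, against 793 to 802 CPM in the other controls. The summed level of the 11 neuronal genes was 7875 CPM in bulk CUS 5, against 7657 to 7709 CPM in the other CUS mice. What sets these mice apart was not tested.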

How the results depend on the processing

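The 4 comparisons of OPC shares and depth did not pass the threshold of the exact permutation test, as analysed or under any alternative run. With at least 1000 genes per nucleus, which left 184 OPC nuclei, 3 of the 4 comparisons changed sign. These were the OPC share (-0.151 percentage points, CUS minus control), the committed share (-5.83) and the median UMIs (306). Leaving out 1 mouse gave -0.13 to 0.410 for the OPC share, -0.319 to 7.89 for the lineage share, 3.402 to 7.89 for the committed share and -259 to -66.5 for the median UMIs. The number of genes called in OPC nuclei was 0 with DESeq2 (76 genes at an unadjusted p under 0.05), with at least 1000 genes per nucleus (239), a Scrublet score of at most 0.2 (125), thinning to 800 UMIs (98) and at most 1% neuronal RNA (142), the last with 2 by the likelihood ratio test and 0 to 3 without 1 mouse. It was 2 without a filter on low counts, 3 with at least 4 of the 7 markers and 0 to 21 without 1 mouse. The differences between classes gave 0 to 1 call (astrocytes) and 0 (mature oligodendrocytes) without 1 mouse. OPC-enriched genes with higher values in OPC nuclei numbered 51 of 106 with at least 1000 genes, 51 of 79 after thinning, and, without 1 mouse, 66 to 84 (59 to 76 with at most 1% neuronal RNA). In bulk, 606 genes were called, 1330 by the likelihood ratio test, 1413 by DESeq2, 1351 without controls 3 and 4, and 133 (without control 2) to 1508 (without control 3) without 1 mouse. OPC-enriched genes called lower numbered 21 by the likelihood ratio test and 25 by DESeq2. In these fits 4.33% and 4.91% of all genes were called lower, against 2.13% as analysed. Without 1 mouse they numbered 3 to 15, beside 103 to 805 of all genes, and 81 to 89 of the set had lower values at any p. Replicate numbers did not pair the mice in OPC nuclei, where deviations of same-numbered mice correlated at -0.0532 to 0.0464. In bulk they correlated at 0.0334 to 0.23. There controls 2 and 4 correlated best with the CUS mouse of the same number, and controls 1 and 3 with another. With replicate number as a block, 2 genes were called in OPC nuclei and 238 in bulk, 160 of them lower. Of the OPC-enriched genes, 4 were called lower there. The causes of these shifts were not tested. Pdia6 rested on 3 to 26 UMIs a mouse.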
